A study of Mus musculus with 16 samples.

Results

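Fibroblasts and epithelium of the mouse small intestine were compared on 5 arrays, all from a co-culture in which the cells shared a medium and were kept apart by a porous membrane. The arrays were chosen by their titles, 3 of co-cultured fibroblasts and 2 of co-cultured epithelium, out of 16 in the series. The genes described are 694 ligands, receptors, extracellular inhibitors and secreted proteins in 26 lists. Of these, 658 had a probe set on the array with their symbol alone, 635 were bright enough in some group to be tested, 23 were not, and 36 had no such probe set.

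All cells of the comparison came from wild-type C57Bl/6 mice of 8 to 10 weeks, labelled male. The epithelium was crypts grown as organoids in Matrigel, from animals P28 and P30 (n = 2). The cells the series title calls myofibroblasts, the matrix-producing cells of the gut wall, came from animals Pl_I, Pl_II and Pl_III (n = 3). They were seeded on an insert with 0.4 µm pores a night before the organoids were placed below it, and the cell types then shared a basal medium for 24 h. The same animals gave cells grown alone, and adenoma cells of 4 further animals with an Apc mutation complete the series. Each animal gave 1 cell type, and fibroblasts lay on a polyester membrane while organoids lay in gel, so cell type, animal and support cannot be told apart. The p-values set a difference against the spread within all 5 groups of the series, adenomas included. Mono- and co-cultures of 1 animal entered as independent samples, so the p-values do not measure the spread between animals of this comparison alone.

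Epithelium and stroma of the gut speak through secreted proteins. Stromal cells are known for R-spondins and BMP antagonists, which keep crypt stem cells active, and for growth factors whose receptors sit on epithelium. Epithelium is known for Hedgehog ligands, read by receptors on the stroma, and for mucus, antimicrobial peptides and lipid carriers that leave on the luminal or basal side.

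Values are log2 levels, so that a difference of 1 is a doubling, and a difference is fibroblasts minus epithelium ± SE from limma. A gene was called when its adjusted p, over the 18095 genes tested, was under 0.05. A level under 2.67, the 30th percentile of all probe sets, is termed dim. The fold of a gene that is dim on 1 side is given as a lower bound against that level. Levels of different genes rest on different probes and are not compared. Array medians lay between 3.5 and 3.53, the arrays of a cell type correlated at 0.974 to 0.984, and arrays of different cell types at 0.848 to 0.851. Precision is limited by the few arrays behind each mean, and the SE takes its spread from all 5 groups.

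The arrays carried the markers of their labels. The 18 epithelial markers averaged 11.03 and 11.21 on the epithelial arrays and 3.27 to 3.51 on the fibroblast arrays, and all 18 were called. Epcam, an epithelial adhesion protein, read 2.65, 3.16 and 3.75 in fibroblasts and 11.19 and 11.01 in epithelium. The 18 fibroblast markers averaged 10.27 to 10.70 in fibroblasts and 3.93 and 3.98 in epithelium, with 17 called. The exception was Fbln1, a matrix glycoprotein, at 9.22, 9.26 and 6.77 in fibroblasts and 9.90 and 9.70 in epithelium.

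Markers of macrophages were also present on the fibroblast arrays. The 15 listed averaged 8.27 to 9.12 there and 3.92 and 4.07 in epithelium. All 15 lay above the dim level in fibroblasts, but so did 13 in epithelium, and that level does not separate the cell types. Higher in fibroblasts were 14, among them Ptprc, the pan-leukocyte phosphatase (7.35 to 8.59), and Adgre1, a macrophage surface receptor (8.84 to 9.37). Smooth muscle markers averaged 8.72 to 9.61 in fibroblasts. Lymphocyte markers stayed at 2.83 to 2.89 on all 5 arrays, and mast cell and endothelial markers averaged at most 3.37. In a bulk sample, fewer cells of a type and less RNA per cell cannot be told apart.

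The fibroblasts of animal Pl_III stood apart. Their array lay more than 2 below both other fibroblast arrays at 29 of the 635 list genes and more than 2 above both at 20, against 2 genes in all for Pl_I and 1 for Pl_II. The female transcript Xist read 8.29 on the Pl_III array and 7.57 in epithelium of P28, and at most 2.30 on the other 3, so these 2 animals did not match the male label. Leaving out the Pl_III array left 299 list genes higher in fibroblasts and 115 higher in epithelium. Leaving out both animals left 287 and 101, with 1 epithelial array assumed to vary like the other groups. Among genes named below, Dll1, Fgfr4, Gucy2c, Il18, Sema4g and Sema7a kept their calls without any 1 array but lost them without both animals. Their differences were then -1.70, -3.97, -8.58, -4.17, -5.41 and -1.51.

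With all 5 arrays, 290 of the 635 list genes were higher in co-cultured fibroblasts, 117 were higher in epithelium and 228 were not called. Of all genes tested 45.1% were called, 23.9% as higher in fibroblasts and 21.2% as higher in epithelium, against 45.7% and 18.4% of the list genes. The shares of all genes are the background for the counts of each list below, and no list was tested against them. The median difference of list genes was 0.84 and that of all genes -0.01. Of 200 ligands, 72 were higher in fibroblasts and 42 in epithelium, with a median of 0.26. Of 232 receptors, 101 and 41 were, with a median of 0.63. Of 41 extracellular inhibitors, 24 were higher in fibroblasts and 3 in epithelium, with a median of 3.23. Other secreted proteins had 87 and 30 of 151, and a median of 2.61.

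**Figure D1:**
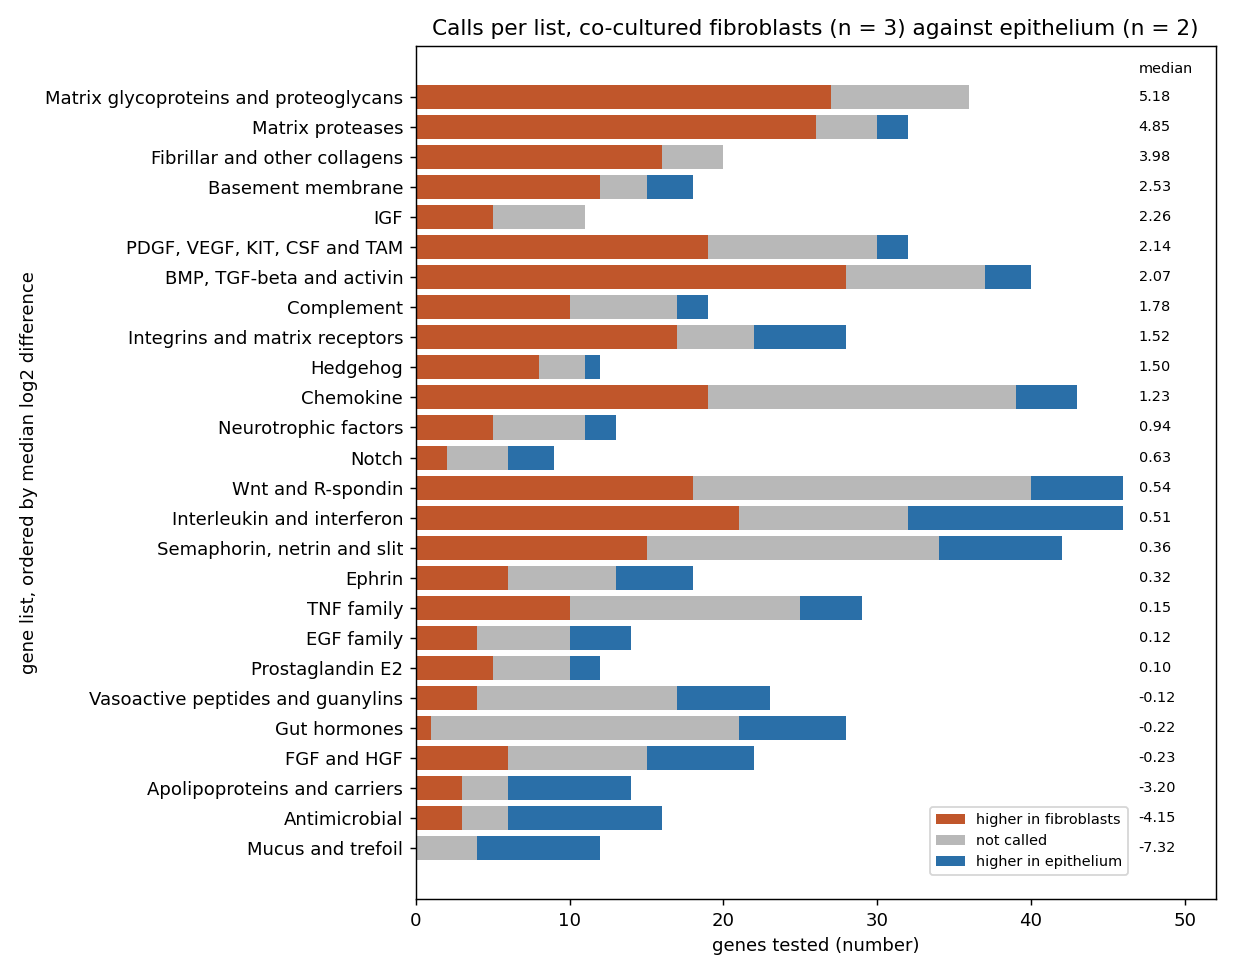
Bars give the number of genes per list that were higher in co-cultured fibroblasts (n = 3), not called, or higher in co-cultured epithelium (n = 2), with the list's median log2 difference at the right. Lists run from matrix glycoproteins (median 5.18) at the top to mucus and trefoil proteins (median -7.32) at the bottom.

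Promoter windows of 7 members are shown, with short motifs in capitals, so that the sequence can be set beside the levels: Grem1 and Hgf, higher in fibroblasts, and Ihh, Tgfa, Lgr4, Met and Guca2b, higher in epithelium. They were chosen with their levels known, and windows without a match are shown too. The sequences are the 250 bases before the start of transcription, read 5′ to 3′ on the gene's strand, from RefSeq on GRCm38.p6. Grem1 lies on the minus strand at chr2:113758649-113758898, and Hgf on the plus strand with starts after chr5:16553245-16553494 and chr5:16553651-16553900. Ihh lies on the minus strand at chr1:74951673-74951922, Tgfa on the plus strand at chr6:86194972-86195221 and Lgr4 on the plus strand at chr2:109917397-109917646. Met lies on the plus strand at chr6:17463707-17463956 and Guca2b on the minus strand at chr4:119658946-119659195.
Grem1: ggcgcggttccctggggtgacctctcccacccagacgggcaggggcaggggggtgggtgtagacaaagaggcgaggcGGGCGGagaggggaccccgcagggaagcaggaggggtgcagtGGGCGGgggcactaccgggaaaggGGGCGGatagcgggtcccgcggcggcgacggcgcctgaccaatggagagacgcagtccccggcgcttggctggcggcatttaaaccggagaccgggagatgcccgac
Hgf, first start: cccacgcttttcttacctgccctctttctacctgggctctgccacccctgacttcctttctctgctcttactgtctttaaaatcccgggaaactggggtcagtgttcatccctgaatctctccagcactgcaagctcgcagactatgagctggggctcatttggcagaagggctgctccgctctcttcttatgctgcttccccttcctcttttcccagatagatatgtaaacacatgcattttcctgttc
Hgf, second start: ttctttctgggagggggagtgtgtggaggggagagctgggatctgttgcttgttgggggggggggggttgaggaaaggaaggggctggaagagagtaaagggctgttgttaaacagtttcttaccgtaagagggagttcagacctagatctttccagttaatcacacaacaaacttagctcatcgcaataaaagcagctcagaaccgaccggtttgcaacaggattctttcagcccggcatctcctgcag
Ihh: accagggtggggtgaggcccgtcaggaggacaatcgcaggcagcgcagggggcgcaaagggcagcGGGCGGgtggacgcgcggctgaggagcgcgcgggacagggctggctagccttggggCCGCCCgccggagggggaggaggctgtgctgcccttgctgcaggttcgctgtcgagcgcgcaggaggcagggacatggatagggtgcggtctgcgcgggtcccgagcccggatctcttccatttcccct
Tgfa: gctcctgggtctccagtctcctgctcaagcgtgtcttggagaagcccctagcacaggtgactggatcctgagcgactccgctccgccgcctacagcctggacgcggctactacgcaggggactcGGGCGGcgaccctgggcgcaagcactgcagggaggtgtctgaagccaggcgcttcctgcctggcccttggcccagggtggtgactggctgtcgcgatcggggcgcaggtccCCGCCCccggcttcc
Lgr4: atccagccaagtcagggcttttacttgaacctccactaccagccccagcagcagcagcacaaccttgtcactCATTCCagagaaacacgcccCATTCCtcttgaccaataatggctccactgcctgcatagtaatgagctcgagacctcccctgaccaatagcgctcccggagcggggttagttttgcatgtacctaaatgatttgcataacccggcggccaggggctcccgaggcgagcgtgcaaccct
Met: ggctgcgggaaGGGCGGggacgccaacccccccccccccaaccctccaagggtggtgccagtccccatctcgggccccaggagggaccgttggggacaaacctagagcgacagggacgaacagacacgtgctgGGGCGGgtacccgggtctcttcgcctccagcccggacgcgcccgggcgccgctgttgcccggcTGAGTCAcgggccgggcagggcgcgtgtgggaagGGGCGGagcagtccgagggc
Guca2b: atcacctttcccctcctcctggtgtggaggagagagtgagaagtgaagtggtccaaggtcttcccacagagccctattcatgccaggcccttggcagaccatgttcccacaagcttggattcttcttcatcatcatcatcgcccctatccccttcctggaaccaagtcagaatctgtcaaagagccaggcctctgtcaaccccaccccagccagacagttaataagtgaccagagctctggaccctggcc

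Capitals mark matches on either strand to the GC box (GGGCGG), which binds Sp factors, to the AP-1 motif (TGANTCA) of the Fos and Jun factors, or to the motif of the TEAD factors (GGAATG). Grem1 held the GC box at 173, 131 and 107 bases before the start, Ihh at 185 and 129, and Tgfa at 126 and 15. Lgr4 held no GC box but the TEAD motif at 178 and 158 bases. Met held the AP-1 motif at 54 bases and GC boxes at 239, 117 and 20. Hgf and Guca2b held none of the motifs searched.

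Of the 635 list genes, 485 had a window, counted here with the 50 bases after the start. The GC box was in 55.5% of 256 windows of list genes higher in fibroblasts and 53% of 117 windows of those higher in epithelium. Among all genes called, listed or not, it was in 59.5% of windows on the fibroblast side and 55.9% on the epithelial side, so the list genes held it no more often than called genes at large. Over all 32851 windows, most of them of genes not called or not tested, its share was 35.7%. Other motifs are given in the same order, list genes on the fibroblast and epithelial sides, all called genes on both sides, and all windows. The AP-1 motif was in 9.38%, 13.7%, 5.32%, 7.6% and 7.81%, and the TEAD motif in 12.5%, 15.4%, 13.4%, 13.6% and 14.7%. The TATA box (TATAAA), found at some core promoters, was in 16.4%, 14.5%, 8.01%, 9.57% and 13.6%. The motif of the GATA factors, which act in gut epithelium (AGATAA), was in 7.81%, 5.98%, 6.17%, 8.27% and 11.2%. The ETS motif (CCGGAAGT) was in 0.781%, 0.855%, 4.61%, 6.43% and 3.89%. The motif of HNF4, an enterocyte factor (CAAAGTCCA), was in 0%, 0.855%, 0.321%, 1.06% and 0.475%. The motif of the GLI factors (GACCACCCA) was in 0%, 0%, 0.229%, 0.233% and 0.253%. These shares were not tested, and a match is a run of letters, not a shown binding site.

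Pairs of ligand and receptor were read next, from a list of 176 known pairs of which 156 had both members tested. In 11 pairs the ligand was higher in fibroblasts and the receptor in epithelium, and in 11 others the ligand was higher in epithelium and the receptor in fibroblasts. Both members were higher in fibroblasts in 36 pairs and higher in epithelium in 9. A member was not called in 89. The pairs share members, so they are not independent of each other. Of all list ligands tested, 36% were higher in fibroblasts and 21% in epithelium, and of receptors 43.5% and 17.7%. How many pairs these shares alone would place on opposite sides was not tested, so the counts are no result about pairing.

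**Figure D2:**
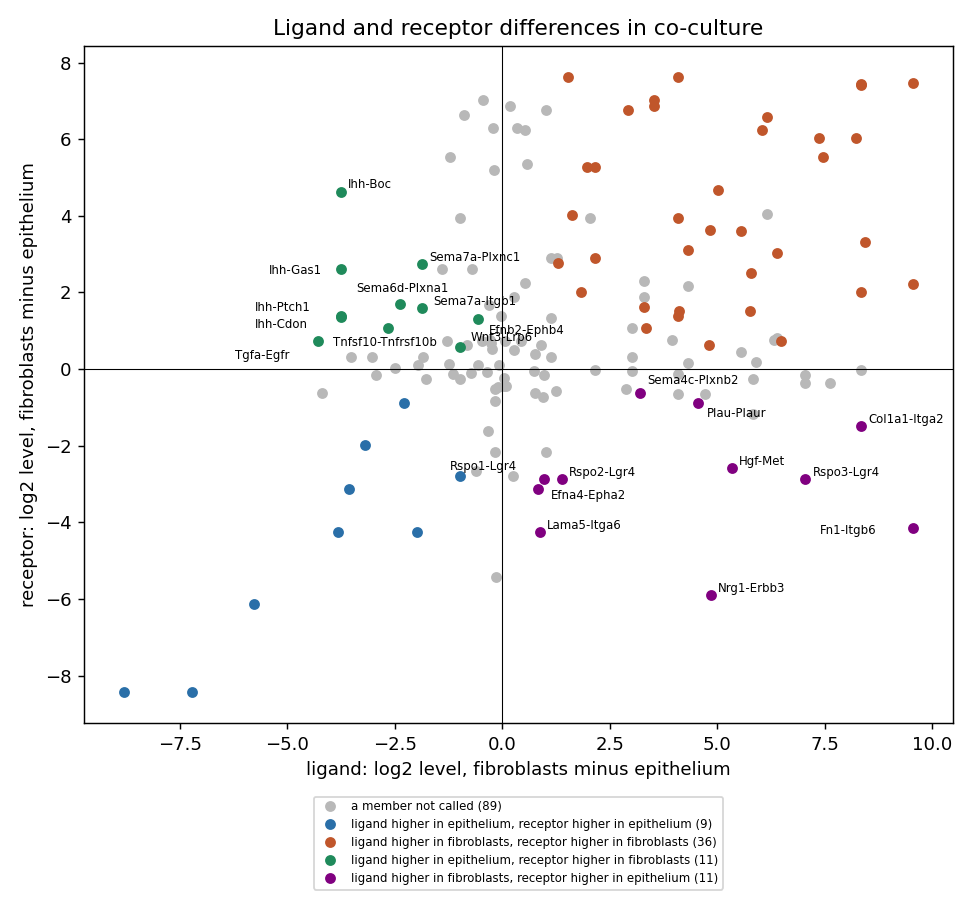
Each point is a known ligand and receptor pair, placed by the log2 difference between co-cultured fibroblasts (n = 3) and epithelium (n = 2) of its ligand (horizontal) and its receptor (vertical). The 11 pairs at the lower right have the ligand higher in fibroblasts and the receptor in epithelium, and the 11 at the upper left have the reverse.

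Neuregulin 1 and its receptor were far apart. Nrg1, an EGF-family ligand, read 8.27, 8.48 and 10.00 in fibroblasts and 4.09 and 4.06 in epithelium. Every fibroblast array lay above both epithelial ones, with Pl_III highest (difference 4.85 ± 0.91, 28.8-fold, adjusted p = 8.4e-04). Erbb3, the neuregulin receptor that signals with Erbb2, read 4.72, 4.85 and 4.56 in fibroblasts and 10.70 and 10.55 in epithelium. The groups did not overlap (-5.91 ± 0.23, 60.3-fold, adjusted p = 9.8e-10). Erbb2, its partner, lay on the same side at -2.12 ± 0.17 (adjusted p = 6.3e-07).

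Hepatocyte growth factor gave the same arrangement. Hgf read 8.95, 7.82 and 6.43 in fibroblasts and 2.43 and 2.36, under the dim level, in epithelium. The fibroblast arrays differed widely and all lay above epithelium (5.34 ± 0.57, at least 33.3-fold, adjusted p = 7.9e-06). Met, its receptor tyrosine kinase, read 6.02, 6.37 and 4.71 in fibroblasts and 8.35 and 8.24 in epithelium, lower on all 3 fibroblast arrays (-2.59 ± 0.41, 6.03-fold, adjusted p = 2.3e-04). Spint1 and Spint2, membrane inhibitors of the proteases that activate Hgf, were both higher in epithelium, at -6.91 ± 0.20 and -6.83 ± 0.31. Mst1r, the receptor related to Met, was as well, at -2.66 ± 0.41.

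R-spondins strengthen Wnt signals through Lgr receptors. Rspo3 read 10.07, 9.51 and 9.16 in fibroblasts and 2.50 and 2.56 in epithelium. It was dim on both epithelial arrays (7.05 ± 0.37, at least 120-fold, adjusted p = 1.4e-08). Lgr4, a receptor for it, read 7.53, 7.30 and 7.02 in fibroblasts and 10.21 and 10.12 in epithelium, and so was present on both sides and higher in epithelium (-2.88 ± 0.19, 7.38-fold, adjusted p = 9.7e-08). Lgr5, the stem cell receptor of the same family, read 3.50, 3.76 and 4.32 against 3.81 and 4.24, and the groups overlapped (-0.16 ± 0.26, adjusted p = 0.662). Rspo1 and Rspo2 were called at 0.97 ± 0.35 and 1.39 ± 0.49. Both calls were lost without either epithelial array, with adjusted p from 0.0792 to 0.199, and in the fit to the 5 arrays alone (0.109 and 0.0692). Rspo1 was also lost without Pl_I (0.71, adjusted p = 0.137) or Pl_II (0.116), and Rspo2 without Pl_III (0.90, adjusted p = 0.118).

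Fn1 and Col1a1 paired with integrins of the epithelium. Itgb6, an epithelial integrin chain that binds fibronectin, read 2.66, 2.98 and 2.73 in fibroblasts and 6.93 and 6.97 in epithelium (-4.16 ± 0.25, adjusted p = 4.0e-08). Itga2, a collagen-binding chain, read 8.19, 8.14 and 8.22 against 9.84 and 9.50 (-1.49 ± 0.19, adjusted p = 4.2e-05). Both integrins were thus higher in epithelium and Itga2 was bright on both sides. The other pairs of this direction were smaller on a side, such as Plau, the urokinase protease (4.56 ± 0.35), with its receptor Plaur (-0.88 ± 0.23). The Plaur call was lost without the epithelial array of P30 (-0.77, adjusted p = 0.0658).

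In the reverse direction Ihh led. Ihh, the Hedgehog ligand of gut epithelium, read 7.61 and 8.07 in epithelium and 3.79, 4.18 and 4.28 in fibroblasts, without overlap (-3.75 ± 0.44, 13.5-fold, adjusted p = 1.8e-05). Shh and Dhh, the other Hedgehog ligands, differed by -0.02 ± 0.18 and -0.11 ± 0.21. Dhh averaged 2.72 in fibroblasts and 2.83 in epithelium, near the dim level of 2.67, where a difference cannot be resolved. All 5 Hedgehog receptors tested were higher in fibroblasts. Boc, a coreceptor, read 7.87, 7.88 and 7.74 there and 3.48 and 2.91 in epithelium (4.63 ± 0.27, adjusted p = 3.1e-08). Ptch1, the receptor that is also a transcriptional target, read 7.52, 7.56 and 6.96 against 6.06 and 5.87 (1.38 ± 0.21, adjusted p = 1.5e-04). Smo, the signal transducer, differed by 4.52 ± 0.54. The coreceptors Gas1 and Cdon differed by 2.62 ± 0.78 and 1.36 ± 0.38, and both calls were lost without either epithelial array, with adjusted p from 0.0549 to 0.0812.

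The transcription side of the Hedgehog list had Foxf1, a stromal factor, at 10.94, 10.61 and 10.13 in fibroblasts and 4.30 and 3.64 in epithelium (6.59 ± 0.31, adjusted p = 5.4e-09). Gli3 and Gli2, which carry the signal to the nucleus, were higher in fibroblasts by 5.72 ± 0.25 and 1.62 ± 0.28. Gli1 and Hhip, targets that report an active pathway, were under the dim level in every group and were not tested. Their group means in co-culture were 2.36 and 1.87 in fibroblasts. Foxl1, a factor of subepithelial stroma, averaged 3.13 in fibroblasts and 3.27 in epithelium, low on both sides (-0.13 ± 0.28, adjusted p = 0.739).

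Tgfa, an EGF receptor ligand, read 7.49 and 7.43 in epithelium and 3.47, 3.07 and 2.98 in fibroblasts (-4.28 ± 0.28, 19.5-fold, adjusted p = 1.1e-07). Egfr read 10.02, 10.40 and 9.77 in fibroblasts and 9.30 and 9.35 in epithelium. The receptor was thus bright on both sides and 1.67-fold higher in fibroblasts (0.74 ± 0.25, adjusted p = 0.0297). That call was lost without either epithelial array (adjusted p = 0.124 and 0.0972) and without Pl_I (0.0531) or Pl_II (0.103). Ereg, a ligand of the same receptor, lay on the other side, at 10.82, 9.85 and 8.23 in fibroblasts and 3.35 and 2.96 in epithelium (6.48 ± 0.64, adjusted p = 4.4e-06). Hbegf and Btc, further ligands, were not called, at -0.48 ± 0.55 and -1.29 ± 0.59. Nrg4 was higher in epithelium at -1.23 ± 0.22, while Egf differed by 0.44 ± 0.20 (adjusted p = 0.0953).

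Other pairs of this direction joined Sema6d, a transmembrane semaphorin (-2.39 ± 0.36), with Plxna1 (1.69 ± 0.15), and Sema7a (-1.86 ± 0.41) with Plxnc1 (2.73 ± 0.67) and Itgb1 (1.59 ± 0.14). Tnfsf10, the death ligand TRAIL, read 6.12 and 4.61 in epithelium and 2.64, 2.71 and 2.73 in fibroblasts (-2.67 ± 0.43, adjusted p = 2.7e-04). Its receptor Tnfrsf10b read 9.09, 9.20 and 10.05 against 8.33 and 8.40 (1.08 ± 0.30, adjusted p = 0.0105). This receptor call was lost without the epithelial array of P28 (1.05, adjusted p = 0.0616). The last pairs of the 11 were Wnt3 (-0.99) with the Wnt coreceptor Lrp6 (0.58), and Efnb2, an ephrin (-0.57), with its receptor Ephb4 (1.30).

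**Figure D3:**
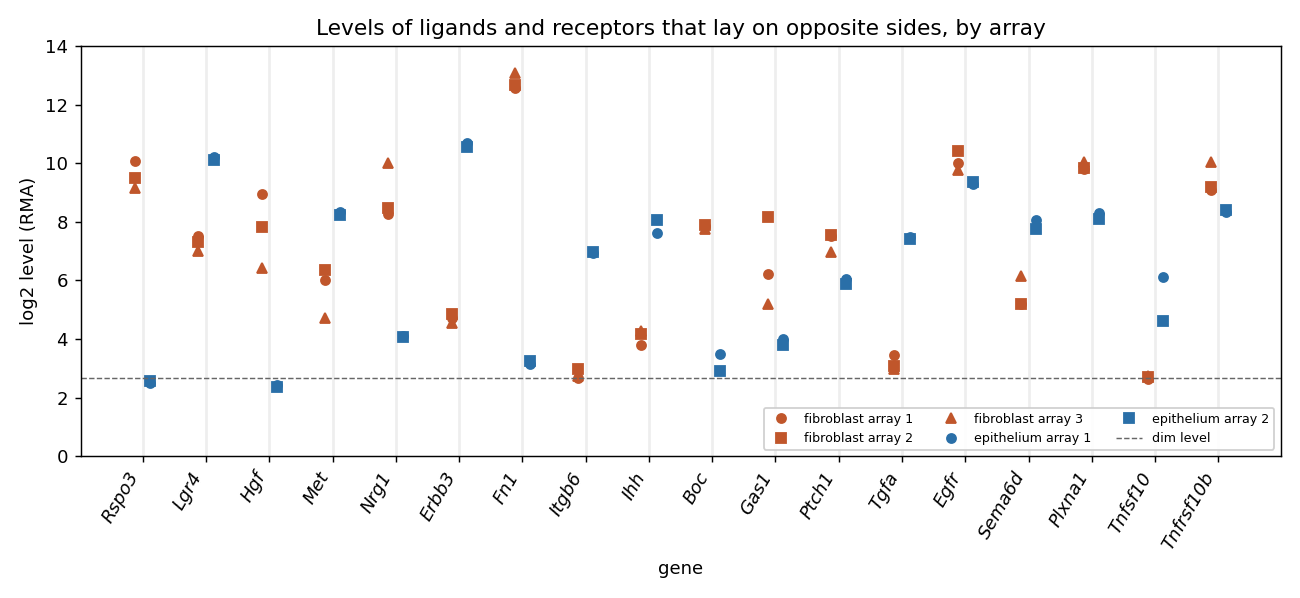
Points are log2 levels on each array for ligands and receptors of opposite-side pairs, orange for the 3 co-cultured fibroblast arrays and blue for the 2 epithelial ones, with the dim level of 2.67 dashed. Rspo3 and Hgf are under the dim level in epithelium, while Egfr is at 9.30 or more on all 5 arrays.

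Of 46 Wnt genes tested, 18 were higher in fibroblasts and 6 in epithelium, with a median of 0.54. Among 16 ligands 5 were higher in fibroblasts, and the largest after Rspo3 was Wnt5a, a non-canonical ligand, at 6.74, 7.56 and 7.43 against 4.17 and 3.72 (3.30 ± 0.32, adjusted p = 3.8e-06). Wnt3, a ligand known from Paneth cells, read 3.84 and 3.79 in epithelium and 2.68, 2.83 and 2.96 in fibroblasts (-0.99 ± 0.19, adjusted p = 8.1e-04). Wnt2b, a stromal ligand of the gut, read 4.55, 3.70 and 3.34 against 3.68 and 3.54, with overlap (0.26 ± 0.31, adjusted p = 0.549). Wnt4, Wnt9b and Wnt2 were not called either, at -0.56 ± 0.52, -0.36 ± 0.21 and -0.30 ± 0.19. Wnt5b (0.49 ± 0.18) and Wnt6 (-0.46 ± 0.15) lost their calls without either epithelial array or in the fit to the 5 arrays alone. Wnt5b lost it also without Pl_I or Pl_III and Wnt6 without Pl_II, all with adjusted p from 0.0521 to 0.242.

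Genes listed as secreted Wnt inhibitors had 4 of 10 higher in fibroblasts and none in epithelium. These were Dkk3 (5.45 ± 0.33), Sfrp1 (4.72 ± 0.77), Dkk2 (4.66 ± 0.27) and Frzb (4.42 ± 0.61). Of these, Sfrp1, Dkk2 and Frzb bind Wnts or their coreceptors. Sfrp1 read 9.03 and 8.26 in Pl_I and Pl_II and 5.96 in Pl_III. Dkk1 and Notum differed by 0.10 ± 0.18 and 0.04 ± 0.33. Of 20 receptors and membrane regulators, 9 were higher in fibroblasts, among them Fzd1, Fzd2 and Fzd8 (3.81 to 4.26) and Ptk7, a planar polarity receptor (4.50 ± 0.26). Fzd5 and Rnf43, the latter an enzyme that removes Frizzled receptors, were higher in epithelium. Rnf43 read 7.48 and 7.55 there and 3.79, 3.68 and 4.13 in fibroblasts (-3.65 ± 0.38, adjusted p = 6.7e-06). Znrf3, its relative, differed by 0.35 ± 0.23 (adjusted p = 0.249).

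BMP and TGF-beta genes lay mostly on the fibroblast side, with 28 of 40 higher there, 3 higher in epithelium and a median of 2.07. Grem1, a BMP antagonist of the crypt stroma, read 12.06, 11.80 and 11.46 in fibroblasts and 2.30 and 2.50 in epithelium. It was dim in epithelium (9.37 ± 0.26, at least 548-fold, adjusted p = 6.5e-11). Fstl1, a follistatin-like protein, and Ltbp2, of the family named latent TGF-beta binding proteins, differed by 8.19 ± 0.23 and 7.24 ± 0.19. In all 10 of 12 inhibitors were higher in fibroblasts, and Nog and Chrd, which are BMP antagonists too, were not called (0.02 ± 0.13 and 0.50 ± 0.33). Ligands on the fibroblast side included Inhba, an activin chain (5.83 ± 0.49), Bmp4 (4.82 ± 0.45) and Tgfb1 (4.11 ± 0.32). Bmp8b, a BMP ligand, read 6.01 and 6.59 in epithelium and 3.02, 3.24 and 3.32 in fibroblasts (-3.11 ± 0.31, adjusted p = 4.0e-06). Bmp7 was also higher in epithelium (-1.77 ± 0.56), a call lost without either epithelial array (adjusted p = 0.0746 and 0.109). Receptors were called for 9 of 13, all higher in fibroblasts. Acvr2a, an activin receptor, was bright on both sides, at 7.88 to 8.26 in fibroblasts and 8.27 and 8.34 in epithelium.

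Among FGF genes the ligands and receptors split by subtype. Fgf7, a stromal factor for epithelium, read 9.94 and 10.04 in Pl_I and Pl_II, 6.69 in Pl_III, and 2.49 and 2.63 in epithelium. All fibroblast arrays lay above epithelium, and the spread among them was wide (6.33 ± 1.12, at least 74.5-fold, adjusted p = 5.4e-04). Fgf10 and Fgf2 were higher in fibroblasts too (3.94 ± 0.54 and 2.93 ± 0.51). Fgfr1, a mesenchymal receptor, read 9.74, 9.94 and 9.98 against 3.44 and 2.80 (6.76 ± 0.18, adjusted p = 5.4e-11). Fgfr2, which binds Fgf7 and Fgf10 in its epithelial form, read 8.81, 7.44 and 6.18 in fibroblasts and 6.72 and 6.68 in epithelium. These overlapped (0.77 ± 0.72, adjusted p = 0.428), and the probe sets do not separate the forms. Fgfr3 and Fgfr4 were higher in epithelium, at -2.16 ± 0.20 and -4.25 ± 0.90. Fgf15, the ileal hormone that acts on Fgfr4, read 5.61 and 4.20 in epithelium and 3.27, 2.96 and 2.55 in fibroblasts (-1.98 ± 0.37, adjusted p = 7.7e-04). It was -1.27 without the P28 array.

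PDGF, CSF and TAM genes had 19 of 32 higher in fibroblasts and 2 in epithelium. Pdgfrb, a mesenchymal receptor, read 11.50, 11.37 and 11.59 against 4.97 and 3.99 (7.01 ± 0.25, adjusted p = 4.9e-10). Pdgfra read 11.31 and 11.44 in Pl_I and Pl_II and 7.63 in Pl_III, against 3.24 and 3.28 (6.87 ± 1.13, adjusted p = 3.0e-04, and 8.11 without Pl_III). Axl, a TAM receptor, differed by 7.62 ± 0.25. Csf1, the macrophage growth factor, read 11.77, 11.55 and 11.69 against 3.92 and 4.48 (7.47 ± 0.31, adjusted p = 1.6e-09). Its receptor Csf1r, itself a macrophage marker, read 9.21, 8.78 and 9.64 against 3.67 and 3.66 (5.54 ± 0.26). On the epithelial side were Kitl, the stem cell factor (-3.19 ± 0.39), and its receptor Kit (-1.99 ± 0.60), whose call was lost without either epithelial array (adjusted p = 0.0719 and 0.0749).

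IGF and Notch lists were small. Igfbp7, an IGF binding protein, read 12.43, 12.58 and 12.52 in fibroblasts and 4.41 and 4.04 in epithelium (8.29 ± 0.20, adjusted p = 2.3e-11). Igf1 and its receptor Igf1r were both higher in fibroblasts, at 4.09 ± 0.38 and 3.94 ± 0.30. Of 5 Notch ligands, Dll4, Jag2 and Dll1 were higher in epithelium, at -3.53 ± 0.61, -3.04 ± 0.27 and -1.84 ± 0.45. Notch2 was higher in fibroblasts (2.90 ± 0.30), and Notch1 was not called (0.32 ± 0.26). Jag1, at 7.76, 8.20 and 10.52 against 7.43 and 7.93, was not called either.

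Guidance genes were found on both sides. In the ephrin list 6 of 18 (33.3%) were higher in fibroblasts and 5 (27.8%) in epithelium, with a median of 0.32. Efna5 was higher in fibroblasts (4.32 ± 0.55), and Epha1, Efna1 and Epha2 in epithelium (-5.10 ± 0.24, -3.57 ± 0.26 and -3.12 ± 0.26). Among semaphorins, netrins and slits 15 of 42 (35.7%) were higher in fibroblasts and 8 (19%) in epithelium. Of all genes tested 23.9% and 21.2% were, and neither list was tested against these shares. Slit3 and its receptor Robo1 were both on the fibroblast side, at 6.04 ± 0.33 and 6.23 ± 1.13. The class 4 semaphorins Sema4g (-4.95 ± 1.15) and Sema4a (-4.87 ± 0.30) were on the epithelial side. Ptn and Gfra2, a growth factor and a neurotrophic receptor, were higher in fibroblasts (6.17 ± 0.98 and 5.20 ± 0.54), whereas Ret was higher in epithelium (-1.84 ± 0.23).

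Of 30 chemokine ligands 17 were higher in fibroblasts, with a median of 3.45, and 3 in epithelium. Ccl2, which draws monocytes, read 12.23, 12.36 and 11.81 in fibroblasts and 2.91 and 1.88 in epithelium (9.74 ± 0.54, at least 651-fold, adjusted p = 2.2e-08). Ccl3 and Ccl7, further monocyte chemokines, differed by 9.08 ± 0.52 and 8.44 ± 0.34. Ccl25 and Ccl28, which guide lymphocytes to mucosa, were the epithelial ones. Ccl25 read 8.29 and 9.10 there and 5.58, 5.97 and 5.74 in fibroblasts (-2.93 ± 0.34, adjusted p = 1.8e-05). Ccl28 differed by -2.68 ± 0.29. Cxcl16 was bright on both sides and was not called, at 10.46 to 11.02 against 10.84 and 10.91. Cxcl15 (-0.49 ± 0.18) lost its call without any of the 5 arrays, with adjusted p from 0.0613 to 0.215. Of 13 chemokine receptors 2 (15.4%) were higher in fibroblasts and 1 (7.69%) in epithelium, below the 23.9% and 21.2% of all genes. The macrophage markers above were higher on the same side as these chemokines. Among the fibroblast arrays the mean of the macrophage markers was 8.42 in Pl_I, 8.27 in Pl_II and 9.12 in Pl_III. Not every marker shared this order, as C1qb was highest in Pl_III (10.55) and Cd14 in Pl_I (10.58). Ccl2, Ccl3 and Ccl7 read lowest in Pl_III (11.81, 11.29 and 11.31). The part of the macrophage markers in these differences was not tested.

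Interleukin and interferon genes were divided, with 21 of 46 higher in fibroblasts and 14 in epithelium. Il1a, an alarm cytokine, read 11.06, 10.52 and 9.29 in fibroblasts and 2.12 and 1.98 in epithelium (8.24 ± 0.59, at least 196-fold, adjusted p = 2.1e-07). Il1b and the oncostatin receptor Osmr differed by 7.36 ± 0.48 and 7.63 ± 0.38. Il6, which signals through a shared receptor chain, differed by 5.80 ± 0.64. Il22ra1, the receptor for the barrier cytokine IL-22, read 10.72 and 10.91 in epithelium and 2.92, 3.04 and 2.79 in fibroblasts (-7.90 ± 0.26, 239-fold, adjusted p = 2.1e-10). Ifnlr1, the receptor for lambda interferons, was also higher in epithelium (-3.65 ± 0.29). So were the ligands Il18 (-4.20 ± 1.02) and Il33 (-2.51 ± 0.31). Ifngr2, a chain of the interferon gamma receptor, read 10.20 to 10.29 in fibroblasts and 10.64 and 10.53 in epithelium and was not called.

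TNF family genes had 10 of 29 higher in fibroblasts and 4 in epithelium. Tnf read 10.88, 10.36 and 9.75 in fibroblasts and 6.52 and 5.49 in epithelium (4.32 ± 1.20, adjusted p = 0.0106), a call lost without the P30 array (3.80, adjusted p = 0.0822). Tnfrsf11b, a decoy receptor, differed by 4.53 ± 0.65. Tnfrsf1a, the main TNF receptor, was read at 9.36 to 9.68 on all 5 arrays (0.15 ± 0.17, adjusted p = 0.511). Complement genes were higher in fibroblasts for 10 of 19 and in epithelium for 2. C1qb, a macrophage product, read 9.14, 9.09 and 10.55 against 3.54 and 3.64, and Cd55, a complement inhibitor on membranes, was higher in epithelium (-4.23 ± 0.49). The part of the macrophage markers was not tested for these cytokines and complement genes either.

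Of 7 enzymes of prostaglandin E2, 3 were higher in fibroblasts and 1 in epithelium, and of 5 receptors 2 and 1 were. Ptgs2, the inducible cyclooxygenase, read 12.29, 12.16 and 11.53 in fibroblasts and 3.13 and 2.86 in epithelium (9.0 ± 0.78, 512-fold, adjusted p = 1.2e-06). Ptges, the terminal synthase, read 10.43, 9.60 and 6.01 against 3.97 and 3.79 (4.80 ± 1.29, adjusted p = 0.00913, and 0.0524 without the P30 array). Ptger4, a receptor, read 8.19 and 7.94 in epithelium and 5.67, 5.25 and 5.26 in fibroblasts (-2.67 ± 0.35, adjusted p = 4.3e-05). Hpgd, which breaks the lipid down, read 9.0 and 9.21 in epithelium and 2.03, 3.14 and 3.36 in fibroblasts (-6.26 ± 0.48, 76.7-fold, adjusted p = 4.5e-07). Ptgs2 and Ptges were thus higher in fibroblasts, and Ptger4 and Hpgd in epithelium, while 2 of the 5 receptors lay on the fibroblast side. The part of the macrophage markers was not tested for these genes either.

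Of 28 gut hormone genes tested, 7 (25%) were higher in epithelium, 1 (3.57%) in fibroblasts and 20 were not called. The list with guanylin and natriuretic peptides had 6 (26.1%) and 4 (17.4%) of 23. Both epithelial shares were near that of all genes, of which 21.2% were higher in epithelium and 23.9% in fibroblasts. Guca2b and Guca2a, the guanylin peptides that set fluid secretion, differed by -8.81 ± 0.56 and -7.22 ± 0.62. Guca2b read 11.88 and 11.87 in epithelium and 2.72, 3.26 and 3.22 in fibroblasts. Their receptor Gucy2c lay on the same side (-8.44 ± 1.80, adjusted p = 0.00201, and 0.0556 without animals P28 and Pl_III). Chgb and Chga, granule proteins of enteroendocrine cells, differed by -6.48 ± 0.24 and -5.23 ± 0.29. Of 12 hormone ligands 5 were higher in epithelium and none in fibroblasts. Of their 16 receptors Npy1r, a neuropeptide receptor, was the 1 higher in fibroblasts, at 9.87, 9.64 and 9.24 against 3.39 and 2.50 (6.64 ± 0.31, adjusted p = 5.4e-09). Vipr1 was higher in epithelium (-5.42 ± 0.67). The natriuretic receptors Npr2 and Npr3 were higher in fibroblasts (5.34 ± 0.29 and 5.27 ± 0.87).

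Mucus, antimicrobial and lipid carrier genes made the epithelial side of the secreted proteins. Of 12 mucus and trefoil genes 8 were higher in epithelium and none in fibroblasts, with a median of -7.32. Zg16, a goblet cell lectin, read 11.02 and 10.97 in epithelium and 1.87, 2.09 and 2.35 in fibroblasts (-8.90 ± 1.58, at least 320-fold, adjusted p = 5.5e-04). Muc2, the gel-forming mucin, differed by -7.59 ± 1.38. Of 16 antimicrobial genes 10 were higher in epithelium, such as Ang4 (-8.27 ± 0.92) and Reg4 (-7.35 ± 1.00), and 3 in fibroblasts. Saa3, an acute phase protein, was among the latter, at 13.10, 13.15 and 11.81 against 3.92 and 3.16 (9.15 ± 0.81, adjusted p = 1.4e-06), with Lcn2 (5.62 ± 1.04) and the macrophage lysozyme Lyz2 (5.03 ± 0.45). Lyz1, the Paneth cell lysozyme, read 11.47 and 11.50 in epithelium and 5.33, 5.44 and 5.25 in fibroblasts. It was not called (-6.15 ± 2.41, adjusted p = 0.0562) in the fit that shares its spread with the adenomas, and was called with adenomas left out (adjusted p = 1.0e-08).

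Apob and Apoa4, which build fat particles, differed by -9.59 ± 0.35 and -8.79 ± 0.23. Apob read 12.12 and 12.17 in epithelium and 2.37, 2.32 and 2.97 in fibroblasts, at least 663-fold. Mttp, which loads lipid onto Apob, was at -7.49 ± 0.23. Of 14 lipid and metal carriers 8 were higher in epithelium and 3 in fibroblasts. Cp, the copper carrier, read 10.04, 10.28 and 8.28 in fibroblasts and 2.79 and 2.52 in epithelium (6.88 ± 1.10, adjusted p = 2.5e-04). Apoe lost its call (1.17 ± 0.44) without either epithelial array, without Pl_II and without Pl_III, with adjusted p from 0.0761 to 0.241.

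Matrix genes were the core of the fibroblast side. Of 36 glycoproteins and proteoglycans 27 were higher in fibroblasts and none in epithelium, with a median of 5.18. Lox, the collagen crosslinking enzyme, read 11.74, 11.78 and 12.09 in fibroblasts and 1.87 and 2.16, under the dim level, in epithelium (9.86 ± 0.17, at least 586-fold, adjusted p = 4.9e-12). Dcn, a collagen-binding proteoglycan, read 12.49, 12.50 and 12.45 against 2.58 and 2.88 (9.75 ± 0.27, 864-fold). Fn1, Bgn and Postn differed by 9.57 ± 0.44, 9.43 ± 0.52 and 9.41 ± 0.32. Of 20 collagens 16 were higher in fibroblasts and none in epithelium. Col1a1, the main fibrillar chain, read 12.19, 12.45 and 12.38 against 4.19 and 3.80 (8.35 ± 0.18, 326-fold, adjusted p = 1.3e-11). Col7a1 and Col27a1 were not called, at 0.97 ± 0.47 and 0.77 ± 0.31.

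The basement membrane between both cell types was split by chain. Of 18 genes 12 were higher in fibroblasts and 3 in epithelium. Lamb1, Col4a1 and Col4a2 were higher in fibroblasts, at 7.85 ± 0.27, 6.74 ± 0.57 and 6.35 ± 0.68. Lamb3 and Lama3, chains of laminin 332, were higher in epithelium. Lamb3 read 9.58 and 9.44 there and 4.35, 3.55 and 3.29 in fibroblasts (-5.78 ± 0.25, adjusted p = 2.8e-09), and Lama3 differed by -3.82 ± 0.26. Their receptor chains Itgb4 and Itga6 lay on the same side (-6.12 ± 0.29 and -4.26 ± 0.57). Agrn was higher in epithelium (-1.15 ± 0.34) and Lama5 in fibroblasts (0.88 ± 0.31). Agrn lost its call without either epithelial array (adjusted p = 0.0598 and 0.0754). Lama5 lost it without P28 (0.49, adjusted p = 0.342), Pl_I (0.0596) or Pl_III (0.113).

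Integrins and matrix receptors had 17 of 28 higher in fibroblasts and 6 in epithelium. Itga5 and Itga11, which bind fibronectin and collagen, and the collagen receptor Ddr2 differed by 7.42 to 7.46. Dag1, dystroglycan, read 9.95 to 10.37 in fibroblasts and 10.28 and 10.33 in epithelium and was not called. Matrix proteases and their inhibitors had 26 of 32 higher in fibroblasts and 2 in epithelium, with a median of 4.85. Mmp12, the macrophage elastase, read 10.89, 10.67 and 10.53 against 3.31 and 2.89 (7.60 ± 0.19, adjusted p = 2.8e-11). The macrophage markers lay on the same side, and their part was not tested. Serpinh1, a collagen chaperone, and Timp1, an inhibitor of metalloproteases, differed by 7.43 ± 0.22 and 7.34 ± 0.21. Serpinb5, an epithelial serpin, read 9.45 and 9.06 in epithelium and 2.23, 2.24 and 2.43 in fibroblasts (-6.95 ± 0.20, at least 95.7-fold).

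The 3 fibroblast animals differed widely at some genes. The SD of their arrays exceeded 1 at 89 list genes, of which 52 were called, and its median was 0.34. The SD of the 2 epithelial arrays had a median of 0.16. Adm, the vasoactive peptide adrenomedullin, read 11.41, 10.76 and 5.27 in fibroblasts and 4.33 and 4.27 in epithelium. Its difference was 4.84 ± 1.83 (adjusted p = 0.0485) and 6.78 without Pl_III, and the call was lost without Pl_I (adjusted p = 0.152), Pl_II (0.14) or either epithelial array (0.153 for both). Cfb, a complement factor, read 10.08, 8.91 and 4.75 in fibroblasts, and Pl_II and Pl_III lay below epithelium (9.25 and 9.39). It was not called (-1.41, adjusted p = 0.505). Mmp3 and Cxcl3, named after their values were seen, read 6.80 and 3.33 in Pl_III, against 11.47 and 8.95 in Pl_I and 10.83 and 8.62 in Pl_II. In the opposite direction Igfbp2 and Ptprz1, named likewise, read 9.52 and 9.61 in Pl_III, 4.16 and 3.35 in Pl_I, and 3.58 and 5.29 in Pl_II. Neither was called. The listed markers of pericytes and interstitial cells of Cajal also differed among these arrays, averaging 3.40, 4.27 and 5.07. Its members were not alike, as Rgs5 rose in that order (2.73, 4.60 and 5.69) and Abcc9 did not (3.25, 4.13 and 3.36). The part of these markers was not tested.

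**Figure D4:**
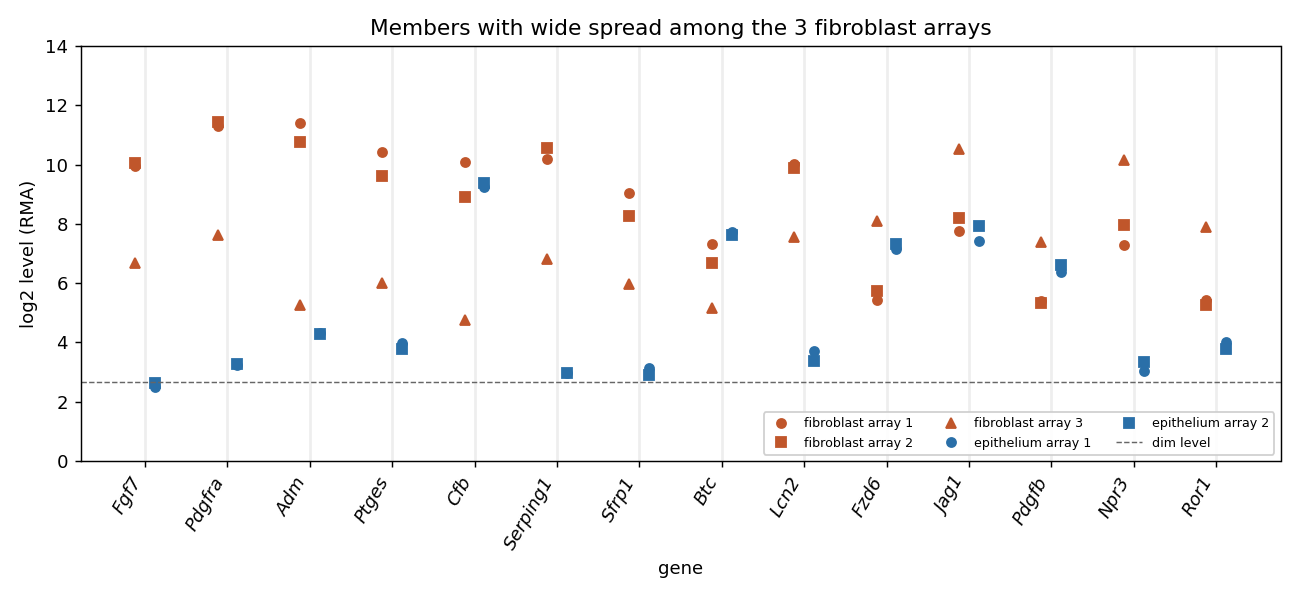
Points are log2 levels on each array for members with wide spread among the co-cultured fibroblast arrays (orange, triangles for Pl_III), beside epithelium (blue) and the dim level of 2.67 (dashed). Pl_III lies below Pl_I and Pl_II for genes such as Pdgfra (7.63 against 11.31 and 11.44) and above them for genes such as Jag1 (10.52 against 7.76 and 8.20).

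The gap between the cell types, their log2 difference, was also compared between co-culture and monoculture. Cells grown alone differed at 50.7% of all genes, 26.5% higher in fibroblasts and 24.2% in epithelium. The gap in co-culture differed from that in monoculture at 1.11% of all genes, 0.271% with a more positive and 0.834% with a more negative gap. It did so at 15 list genes, each with a more negative gap in co-culture. Mono- and co-cultures came from the same animals, and the test of the gap did not pair them. The labels of the third fibroblast monoculture name both Pl_II and Pl_III. Blocking by animal (a random replicate block) called 48 list genes. Without animals P28 and Pl_III none was called, and 5 to 10 were without any 1 array (5 without P28, 7 without P30 or Pl_I, 8 without Pl_II, 10 without Pl_III).

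In 14 of the 15 genes the epithelial mean differed more between the culture forms than the fibroblast mean. The exception was Mfap4, a microfibril protein, which averaged 3.35 in co-cultured and 4.40 in monocultured fibroblasts and 2.93 and 2.98 in epithelium. Nid1, a basement membrane linker, averaged 8.66 in co-cultured and 5.29 in monocultured epithelium, and 11.91 and 12.06 in fibroblasts. Its gap thus fell from 6.76 to 3.24, a change of -3.52 ± 0.40 (adjusted p = 0.00271). Plat, the tissue plasminogen activator, averaged 8.82 and 6.34 in epithelium and 9.28 and 9.63 in fibroblasts (-2.83 ± 0.33, adjusted p = 0.00319). It was higher in fibroblasts in monoculture (3.29) and not called in co-culture (0.46 ± 0.23). Plaur, the urokinase receptor, was higher in fibroblasts in monoculture (1.09 ± 0.23) and higher in epithelium in co-culture (-0.88 ± 0.23). Tnfrsf12a, the receptor of TWEAK, went from 1.90 to 0.13, and Egfr from 2.41 to 0.74. Itga2, Il33, Bmp8b, Epha2 and Serpinb5 became more epithelial, with gaps of -0.05, -0.20, -0.84, -1.26 and -5.29 in monoculture and -1.49, -2.51, -3.11, -3.12 and -6.95 in co-culture.

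**Figure D5:**
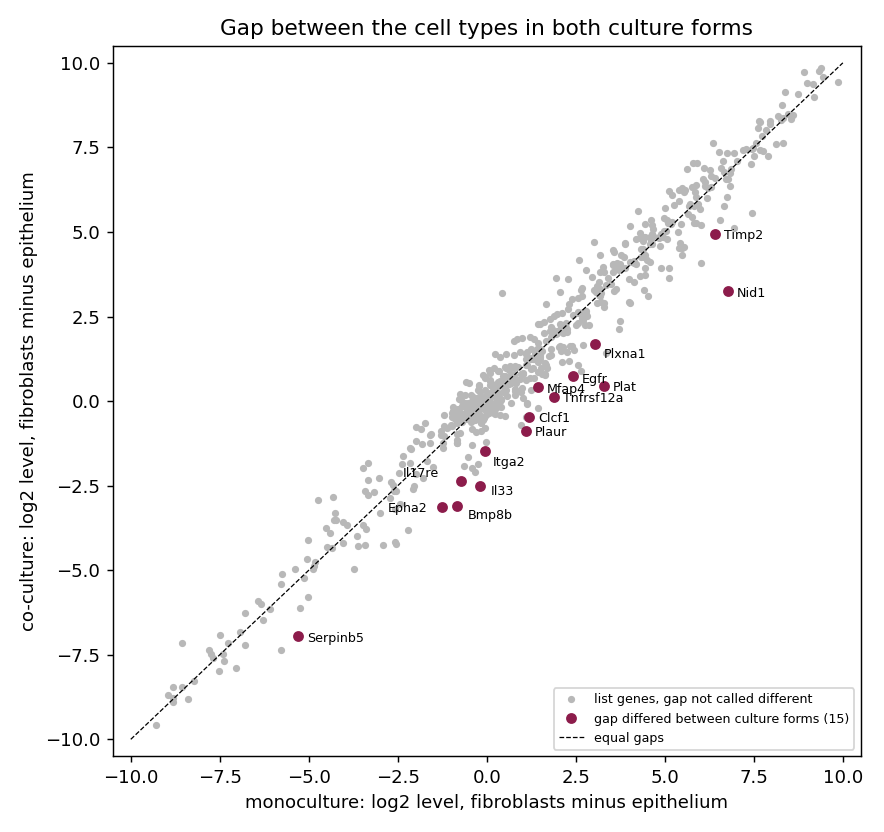
Each point is a list gene, placed by its log2 difference between fibroblasts and epithelium in monoculture (horizontal) and in co-culture (vertical), with equal gaps on the dashed line. The 15 genes whose gaps differed all lie below the line, with Nid1 farthest (6.76 in monoculture and 3.24 in co-culture).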

How the data were processed

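The authors deposited log2 levels of 41345 probe sets on 16 one-colour arrays, summarised by RMA according to the labels' list of tools, per the submitters' processing notes. RMA evens out the distribution of all arrays, which hides a shift of most transcripts and compresses low values; no detection calls were used. Each array received 150 ng of RNA amplified with a whole-transcript kit, per the labels' protocols. Probe sets with 1 gene symbol in the platform annotation (23521; 1814 had several and 16010 none here) gave 22180 genes, each read from its brightest probe set. A gene needed 1 of 5 group means above the 30th percentile taken over probe sets, and 4085 genes had none.

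The tests used limma 3.58.1 (R 4.3.3), with group means over 14 biological samples (repeat arrays of an adenoma animal averaged), empirical Bayes moderation (11.7 total degrees of freedom), 2-sided tests and Benjamini-Hochberg adjustment over all 18095 genes. On simulated data with known changes in this contrast over 18095 genes, 49% of changes of 1 and 86% of changes of 2 on the log2 scale were recovered with 4 false calls. The simulation changed only a small part of the genes, otherwise gave all groups a common mean, and drew noise independently for each sample. In the real contrast 45.1% of genes were called, so these rates need not hold there.

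The members, lists and pairs were chosen with earlier results of these data known. Named genes were the 12 largest differences each way, the largest called and the brightest not called members of each list, members of opposite-side pairs, the largest changes of the gap, and all Wnt, Hedgehog, EGF and FGF members. Bmp4, Tgfb1, Inhba, Nog, Chrd, Il6, Mfap4, Efnb2, Ephb4, Mmp3, Cxcl3, Igfbp2, Ptprz1, Xist, Adgre1, Cd14, Msln, Upk3b, Lrrn4, Wt1, Rgs5 and Abcc9 were added after their values were seen. Alternatives were other filters, normalizations, variance priors and fits, animal or number blocks, and leaving out each array or 2 animals. Deviations of same-numbered fibroblast and epithelial arrays, which come from different animals, correlated at -0.024 and 0.038, so numbers do not pair them. Mono- and co-cultures of 1 animal, paired per the labels, correlated at 0.328 to 0.786.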

Additional observations from a re-analysis of the deposited data

Results flagged for a closer look

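The gap between fibroblasts and epithelium differed between co-culture and monoculture by a test of that difference in limma (adjusted p under 0.05) at 15 list genes and at 1.11% of all 18095 genes, and 11 of the 15 are given here by the naming rule. The change of the gap, co-culture minus monoculture, was -3.52 for Nid1, -2.83 for Plat, -2.31 for Il33, -2.26 for Bmp8b, -1.97 for Plaur, -1.86 for Epha2, -1.77 for Tnfrsf12a, -1.67 for Egfr, -1.66 for Serpinb5, -1.44 for Itga2 and -1.35 for Plxna1. Plaur, the urokinase receptor, changed sides between the culture forms. No list gene was called without animals P28 and Pl_III.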

How the results depend on the processing

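No called difference of the 277 named genes changed sign under any of 17 alternatives; of 193 called, 145 stayed called in all of them and 48 lost the call in at least 1, and of 84 not called 27 were called in at least 1. With a 2-fold minimum 1703 genes were higher in fibroblasts, 1418 in epithelium and 0 list genes had a changed gap; 4 pairs had the ligand in fibroblasts and the receptor in epithelium, 2 the reverse, 21 both in fibroblasts and 5 both in epithelium. Leaving out 1 array at a time gave 3444 to 4259 and 3022 to 3564 genes, 255 to 299 and 110 to 117 list genes, 5 to 10 changed gaps, 7 to 10 pairs with the ligand in fibroblasts and the receptor in epithelium, 7 to 12 of the reverse, 29 to 36 with both in fibroblasts and 9 with both in epithelium. Without animals P28 and Pl_III 0 gaps were called as changed. With the animal as a random replicate block (correlation 0.46) 4338 and 3771 genes, 302 and 118 list genes and 48 changed gaps were called, and with the title number as a fixed block 4538 and 3879, 309 and 122, and 17. Settings moved the median difference of all genes between -0.03 and 0.05. Differences between dim levels cannot be resolved.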

Other observations

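Besides Lyz1, the list genes Mmp7, Ptprz1, Ccl9, Igfbp4, Ccl6, Ednrb, Eln, Ror1, Epha3, Itga8, Tff1, Sema3e and Nid2 had groups without overlap and differences over 2 without a call, 14 in all, chosen after their values were seen. Mmp7, a protease known from Paneth cells, read 7.75 and 7.71 in epithelium and 2.39, 3.05 and 2.86 in fibroblasts (-4.96 ± 1.97, adjusted p = 0.0592). Ccl9, a myeloid chemokine, read 10.81, 10.29 and 10.28 in fibroblasts and 6.94 and 6.73 in epithelium (3.63 ± 1.44, adjusted p = 0.0585). For Mmp7 and Ccl9 the 5 arrays lay close together within each cell type, and the SE takes in the spread of all groups in the fit. At others, such as Ptprz1, the fibroblast arrays themselves differed widely. A missing call thus need not mean spread within this comparison. Msln, listed as a marker of mesothelium, read 9.90 and 10.52 in epithelium and 2.90, 3.67 and 3.25 in fibroblasts. Upk3b of the same list was higher in epithelium too (-1.72 ± 0.30, adjusted p = 4.3e-04). The other listed members were not called, with Wt1 at 3.57 to 4.60 and Lrrn4 at 2.21 to 2.64 on all 5 arrays.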
